A study of Mus musculus with 9 samples.

Results

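Granzymes and perforin are the death-inducing proteins of cytotoxic granules. The mouse array carried probes for the 10 genes studied here: Gzma, Gzmb, Gzmc, Gzmd, Gzme, Gzmf, Gzmg, Gzmk, Gzmm and Prf1. The members were all probes, other than controls, whose gene name on the array is one of these. The 10 members are 10 of 34797 gene names in the table of deposited values, and they were read by 12 of 55681 probes. Gzme and Gzmk had 2 probes each and the other members had 1.

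Granzymes are serine proteases that killer T cells and natural killer (NK) cells store in granules together with serglycin. Perforin, encoded by Prf1, forms pores through which granzymes enter a target cell. Granzyme B cleaves after aspartate and activates caspases, whereas granzymes A and K cleave after basic residues and granzyme M after methionine or leucine. Neutrophils have their own granule serine proteases, among them elastase, proteinase 3 and cathepsin G, and the gene for cathepsin G lies beside the granzyme genes on mouse chromosome 14.

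Gr-1bright neutrophils were sorted by flow cytometry from dissociated tissue of female FVB/N mice. Skin carcinogenesis was driven by the carcinogen DMBA, given at 6 and 13 weeks of age, and by the tumor promoter PMA, painted on the skin 2 times a week from week 1 to week 18 to 20, and every group below came from mice treated in this way. Papilloma skin is the skin next to a papilloma (2 arrays), tumor skin is the skin next to a carcinoma (2 arrays), papilloma is the benign lesion itself (3 arrays) and tumor is the carcinoma (2 arrays). Each array held RNA pooled from mice and was hybridized in a single color, so that 9 arrays on 3 slides were the replicates and their number limits the precision of every value.

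Values are log2 levels from the table the authors deposited, and the Feature Extraction software marked each spot as well above background or not. The 9 arrays did not behave alike. Spike-in RNAs gave a slope of signal on amount of 0.678 in papilloma skin 1, 0.876 in tumor skin 1 and 0.894 in tumor 1, which means that differences on these arrays were compressed, and 1.04 to 1.06 in the other 6. On the same 3 arrays 90.7% to 95% of spots were marked as well above background, against 44.2% to 64.2% on the other 6, so that the mark told little there and is counted below over the 6 arrays alone.

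Some columns of the table also stood apart from the scanner file of the same label. The column papilloma skin 1 had a rank correlation of 0.588 with its own file over 55155 probes, and its closest file was that of tumor 2 at 0.924. The column tumor 1 had 0.827 with its own file and 0.947 with that of tumor 2. The columns papilloma 2 and papilloma 3 were each closest to the file of the other, at 0.981 and 0.959, which leaves the papilloma mean as it is but makes it uncertain which of these columns sits on slide 2 and which on slide 3. The other 5 columns were closest to their own file. The tests of Gzmc and Gzmb are given with and without the columns papilloma skin 1 and tumor 1. Values per array, likeness, marker levels and the calls on further gene lists rest on all columns.

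Of the 12 member probes, 5 were well above background on all 6 informative arrays, namely Gzma, Gzmc, Gzmm, Prf1 and the Gzmk probe A_66_P140238. Gzmb was well above background on 4 of the 6 arrays, the exceptions being papilloma skin 2 and tumor skin 2. The Gzme probe A_55_P1971009 passed on 1 of the 6, tumor 2. The remaining 5 probes, for Gzmd, Gzmf, Gzmg, Gzme (A_55_P1971010) and Gzmk (A_55_P2042331), passed on none of the 6. Among all probes of the array 40.3% passed on all 6 arrays and 29.9% on none. A mean level of at least 6, the minimum for a call, was reached by 6 of the 12 member probes and by 51.9% of all probes.

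The members lie at 4 places in the genome. In the RefSeq annotation of GRCm38.p6 the genes on chromosome 14 follow one another as Mcpt8, Ctsg, Gzme, Gzmd, Gzmg, Gzmn, Gzmf, Gzmc, Gzmb and Atp12a. Gzma and Gzmk are neighbours on chromosome 13, Gzmm lies between Cdc34 and Bsg on chromosome 10, and Prf1 lies between Adamts14 and Pald1 on the same chromosome. Of the 12 member probes 11 carried a RefSeq accession, and all 11 matched the reference table with the same symbol.

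Related genes of a cluster can share sequence, and the probes that the results turn on are therefore shown with the longest run of bases that each has in common with another granzyme or perforin probe, in capitals. The Gzmc probe lies at chr14:56850307-56850366 of mm9 on the minus strand and the Gzmb probe at chr14:56877916-56877975 on the minus strand, and the last 30 of 60 bases are printed for both. The shared run was 8 bases long for Gzmc, with the Gzmm probe, and 6 bases long for Gzmb, with the Gzma probe. The second Gzme probe, at chr14:56736576-56736635 on the minus strand, had a run of 18 bases in common with the probe of Gzmn, a gene of the cluster that is not among the members. The sources used here do not say whether a probe lies in coding sequence or in a UTR, and hybridization of a probe to a related transcript was not tested.
Gzmc, last 30 bases of the probe: ctagATCCTGATctgaccagccatcttccc
Gzmb, last 30 bases of the probe: attaatagctccctacagaaCTTTCAtaca
Gzme, probe A_55_P1971010: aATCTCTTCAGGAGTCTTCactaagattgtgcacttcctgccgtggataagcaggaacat
Gzmn, probe A_51_P126365: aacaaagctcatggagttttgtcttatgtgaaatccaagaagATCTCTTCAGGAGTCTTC

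The promoters of Gzmb, Gzmc and Gzme are shown because these neighbours had different patterns across the groups. Each is the 250 bases before the start of the gene in RefSeq (GRCm38.p6, minus strand), at chr14:56262335-56262584 for Gzmb, chr14:56234658-56234907 for Gzmc and chr14:56120626-56120875 for Gzme, and all 10 members had an entry. Capitals mark matches to motifs searched on both strands. The letters sought were TGANTCA for AP-1. For CRE they were TGACGTCA. Runx sites were sought as TGTGGT, and T-box sites as GGTGTGA. The TATA box was sought as TATAAA. The CRE letters were chosen after the promoters were read.
Gzmb promoter: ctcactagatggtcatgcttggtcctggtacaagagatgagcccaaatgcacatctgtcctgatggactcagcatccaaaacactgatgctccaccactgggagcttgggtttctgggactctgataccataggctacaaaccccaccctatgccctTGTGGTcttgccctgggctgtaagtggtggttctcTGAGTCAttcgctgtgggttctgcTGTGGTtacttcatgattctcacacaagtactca
Gzmc promoter: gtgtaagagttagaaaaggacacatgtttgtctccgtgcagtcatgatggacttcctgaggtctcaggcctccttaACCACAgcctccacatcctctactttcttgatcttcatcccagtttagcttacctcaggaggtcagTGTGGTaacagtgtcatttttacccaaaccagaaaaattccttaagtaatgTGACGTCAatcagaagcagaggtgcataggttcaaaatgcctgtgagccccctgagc
Gzme promoter: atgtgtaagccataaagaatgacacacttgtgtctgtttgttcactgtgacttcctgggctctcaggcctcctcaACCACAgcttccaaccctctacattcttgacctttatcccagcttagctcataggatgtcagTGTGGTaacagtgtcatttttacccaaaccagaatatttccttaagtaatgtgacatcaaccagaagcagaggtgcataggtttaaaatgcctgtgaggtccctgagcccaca

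The Gzmb promoter held 1 AP-1 match, 58 to 52 bases before the start, and 2 Runx matches, 93 to 88 and 34 to 29 bases before it. The Gzmc promoter held a Runx match on each strand, 174 to 169 and 108 to 103 bases before the start, and a CRE match 57 to 50 bases before it. Gzmf and Gzmg, which stayed below background on the informative arrays, held the CRE letters as well, 82 to 75 and 77 to 70 bases before their starts. The Gzme promoter held the pair of Runx matches, 175 to 170 and 113 to 108 bases before the start, and no match to the other 4 motifs. These 3 promoters had no T-box and no TATA match. Of all 32851 promoters of this length 6.75% held the AP-1 letters, 1.55% the CRE letters, 14% the Runx letters, 3.33% the T-box letters and 12.4% the TATA letters. The windows of Gzmc and Gzme differed by 47 single-base edits over 250 bases and those of Gzmb and Gzmc by 138. A match describes letters and was not tested as a binding site.

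**Figure D1:**
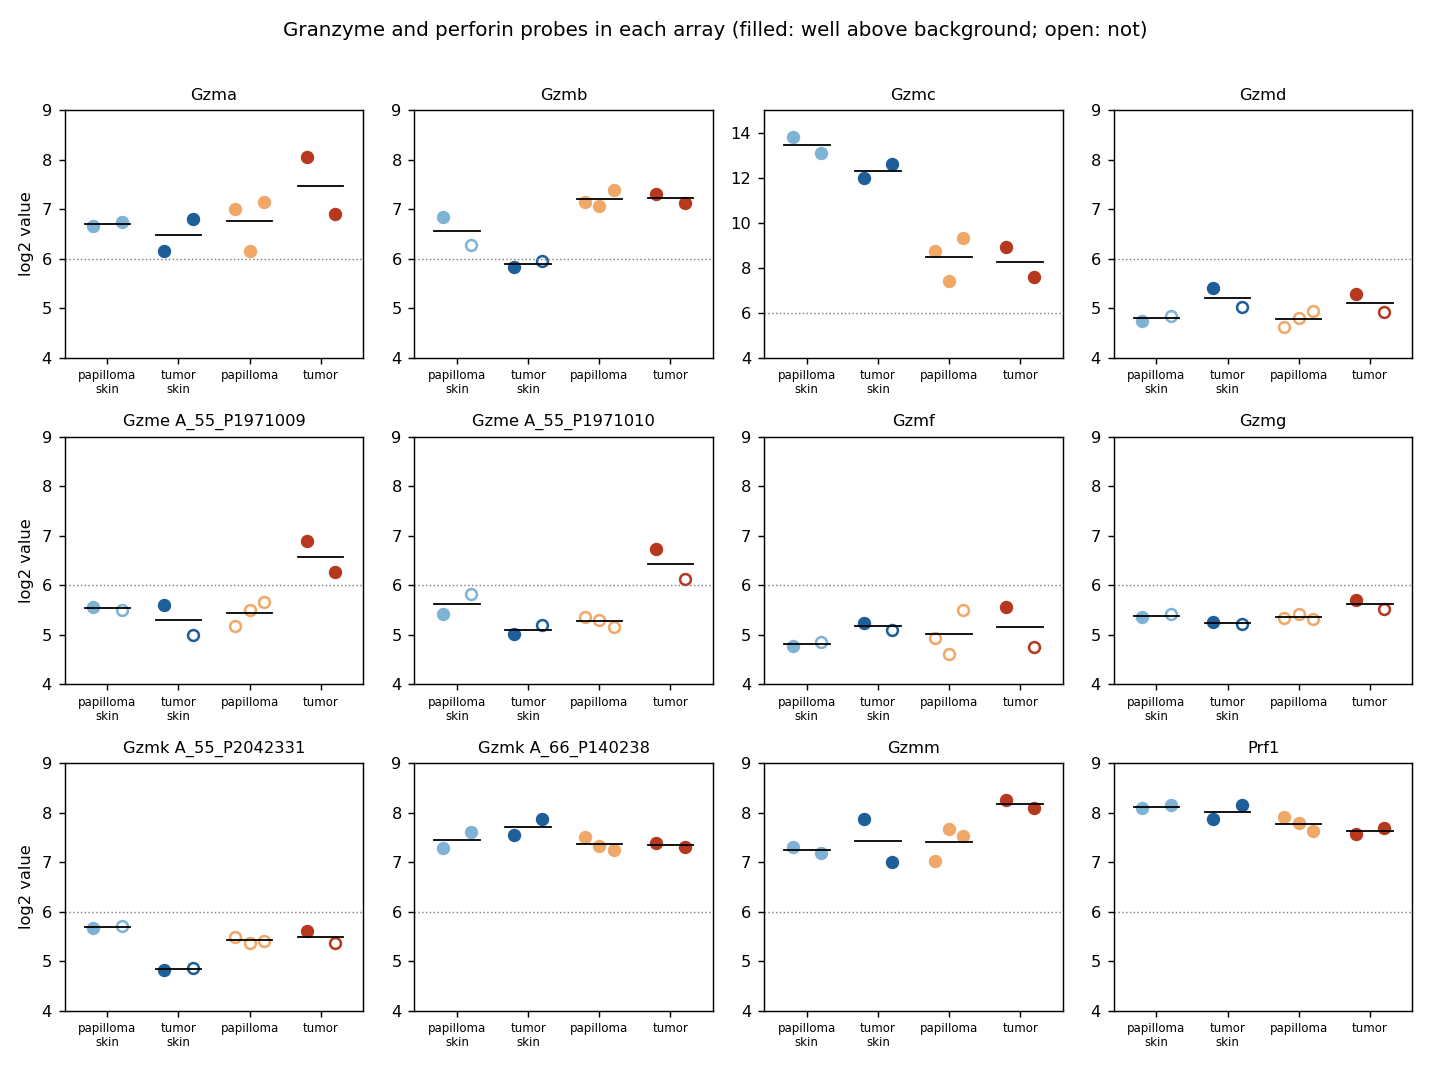
Log2 level of the 12 member probes in each array by group, with the group mean as a black line and the minimum level for a call as a dotted line. Filled points were well above background, and Gzmc, drawn on an axis of its own, stands at 11.98 or more in the 4 skin arrays and at 9.31 or less in the 5 lesion arrays.

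Gzmc, which encodes granzyme C of the chromosome 14 cluster, had log2 levels of 13.80 and 13.13 (papilloma skin), 11.98 and 12.63 (tumor skin), 8.74, 7.41 and 9.31 (papilloma) and 8.92 and 7.59 (tumor). All 4 skin arrays were above all 5 lesion arrays, with no overlap. The group means were 13.46 ± 0.48 (SD, n = 2) for papilloma skin, 12.30 ± 0.46 (n = 2) for tumor skin, 8.49 ± 0.98 (n = 3) for papilloma and 8.25 ± 0.94 (n = 2) for tumor. Papilloma and tumor differed by less than the spread between their arrays, and the skin groups lay far above both. The scanner files, before any scaling between arrays, gave log2 intensities of 12.16 and 12.15 (papilloma skin), 11.63 and 12.13 (tumor skin), 8.02, 9.48 and 7.49 (papilloma) and 9.29 and 7.55 (tumor). They show the same split of skin and lesion, with the values of papilloma 2 and 3 exchanged.

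Gzmb, which encodes granzyme B, had log2 levels of 6.85 and 6.29 (papilloma skin), 5.84 and 5.95 (tumor skin), 7.14, 7.07 and 7.39 (papilloma) and 7.32 and 7.12 (tumor). In the deposited table every lesion array was above every skin array, the reverse of its neighbour Gzmc. The scanner files, before scaling between arrays, gave 7.96 and 3.68 (papilloma skin), 5.99 (tumor skin 1), 5.80, 6.75 and 7.37 (papilloma) and 7.02 and 6.90 (tumor), with tumor skin 2 lower than all but papilloma skin 2. There the split did not hold, as papilloma skin 1 stood highest of all and tumor skin 1 above papilloma 1, both on compressed arrays. The means were 6.57 ± 0.40 (n = 2) for papilloma skin, 5.89 ± 0.08 (n = 2) for tumor skin, 7.20 ± 0.17 (n = 3) for papilloma and 7.22 ± 0.14 (n = 2) for tumor, and papilloma and tumor differed by less than the spread between their arrays. Only 1 of 2 arrays in each skin group measured Gzmb well above background, and in both cases it was a compressed array. Over all probes 7.49% had every lesion array above every skin array and 4.65% had every lesion array below, against 1 member probe of 12 in each direction, Gzmb and Gzmc.

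Gzme, the cluster gene next to Ctsg, had log2 levels with probe A_55_P1971009 of 5.56 and 5.50 (papilloma skin), 5.61 and 4.99 (tumor skin), 5.17, 5.50 and 5.65 (papilloma) and 6.88 and 6.26 (tumor). Its second probe, A_55_P1971010, gave 5.42 and 5.82, 5.01 and 5.19, 5.36, 5.29 and 5.15, and 6.74 and 6.13 in the same order. With both probes the 2 tumor arrays were above the other 7 in the deposited table. In the scanner files, before scaling, the compressed array papilloma skin 1 was above tumor 2 with the first probe (9.40 and 4.93) and with the second (6.06 and 4.45), and so was tumor skin 1 (6.79 and 4.78). Of the 6 informative arrays tumor 2 alone measured Gzme well above background, and with the first probe alone.

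The other cluster members stayed near the low end of the scale in every group. Gzmd ranged from 4.62 to 5.40 over the 9 arrays, Gzmf reached at most 5.55 and Gzmg ranged from 5.22 to 5.71. None of these 3 genes was well above background on any of the 6 informative arrays, so that these values are bounds rather than measured levels.

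Gzma, which encodes granzyme A, had log2 levels of 6.67 and 6.74 (papilloma skin), 6.16 and 6.80 (tumor skin), 7.01, 6.16 and 7.14 (papilloma) and 8.06 and 6.90 (tumor). Tumor 1 stood highest and the groups overlapped otherwise, with tumor 2 below 2 of the 3 papilloma arrays. Gzmk, its neighbour on chromosome 13, ranged from 7.24 to 7.86 with probe A_66_P140238, and its second probe, dim on the 6 informative arrays, from 4.82 to 5.70. The first Gzmk probe thus spanned 0.62 from its lowest to its highest array, and both tumor skin arrays, at 7.54 and 7.86, stood above all 5 lesion arrays, the highest at 7.51.

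Gzmm, which encodes granzyme M, had log2 levels of 7.31 and 7.18 (papilloma skin), 7.87 and 7.01 (tumor skin), 7.02, 7.67 and 7.54 (papilloma) and 8.26 and 8.11 (tumor). Both tumor arrays were above the other 7 in the deposited table, whereas in the unscaled scanner files papilloma skin 1 (10.64) was above both (9.83 and 8.73). Such a separation of the tumor arrays was found for 4 of 12 member probes, those of Gzme, Gzmm and the dim Gzmg, and for 5.37% of all probes. Prf1, the pore-forming protein, had 8.09 and 8.16 (papilloma skin), 7.88 and 8.17 (tumor skin), 7.92, 7.78 and 7.64 (papilloma) and 7.57 and 7.69 (tumor). Its values spanned only 0.60 over all arrays, and papilloma 1 overlapped with tumor skin 1.

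The first question was how neutrophils inside the carcinoma differ from those in the skin around it. Among the members Gzmb was called higher in tumor than in tumor skin and Gzmc was called lower, where limma had to give an adjusted p no greater than 0.05, a change in either direction of 1 or more on the log2 scale, and the mean level had to reach 6. That is 1 of 12 member probes in each direction, beside 2.71% of all probes called higher and 1.51% called lower. Gzmc fell by 4.05 on the log2 scale (SE 0.64, 95% CI -5.52 to -2.59, adjusted p = 0.00919 in limma), which is 16.6-fold lower, and ranked 42 of 55681 probes from the lowest change. Gzmb rose by 1.33 (SE 0.21, 95% CI 0.84 to 1.81, adjusted p = 0.00963 in limma). Only the compressed array of the 2 in tumor skin measured Gzmb well above background, so that its level there is at best a ceiling and no fold is given. Both tumor arrays were below both tumor skin arrays for Gzmc and above them for Gzmb.

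In the same comparison Gzme had log2 fold changes of 1.28 and 1.34 with its 2 probes (adjusted p = 0.0283 and 0.0121 in limma) and both tumor arrays above both skin arrays, but its mean level of 5.68 and 5.57 was under the minimum, so that it was not called. Tumor skin 1, a compressed array, alone of the 2 tumor skin arrays measured Gzme well above background, so that these changes are differences of the deposited values and not measured folds. The dim Gzmk probe had a change of 0.65 (adjusted p = 0.0269 in limma) at a mean level of 5.36 and was not called either, while the other Gzmk probe had -0.36 (adjusted p = 0.244 in limma). Gzma had a change of 1.00 (adjusted p = 0.186 in limma), which turned to between -1.23 and -0.51 when computed from the scanner files and was 0.42 without tumor 1 and 1.58 without tumor 2. Gzmm had 0.74 (adjusted p = 0.160 in limma), with both tumor arrays above both skin arrays, and its size hung on single skin arrays, at 1.17 without tumor skin 1 and 0.31 without tumor skin 2. Prf1 had -0.39 (adjusted p = 0.164 in limma), with both tumor arrays below, and -0.25 without tumor skin 2. At an unadjusted p under 0.05 stood 8 of the 12 probes, beside 26.9% of all probes. The median change of the 12 probes was 0.51, with 7 above 0 and 5 below, beside -0.02 for all probes.

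Within slide 1, the only slide with both groups, tumor minus tumor skin was -3.06 for Gzmc and 1.48 for Gzmb. It was 1.28 and 1.73 for the probes of Gzme, 1.90 for Gzma, 0.39 for Gzmm and -0.31 for Prf1. Both arrays of this pair, tumor 1 and tumor skin 1, were compressed ones, and the column tumor 1 was closest to the file of another array. With slide as a term in limma Gzmc kept its call at -3.16 (adjusted p = 0.0251) and Gzmb lost it at 1.53 (adjusted p = 0.0595). Without tumor 2 the Gzmc change was -3.39 and no longer called (adjusted p = 0.0707 in limma), and Gzmb lost its call without tumor 1 (1.23, adjusted p = 0.0546) or without tumor 2 (1.42, adjusted p = 0.0557). Without the columns papilloma skin 1 and tumor 1 both were called, Gzmc at -4.72 (adjusted p = 0.0392) and Gzmb at 1.23 (adjusted p = 0.0386). Without the 3 compressed arrays, an alternative chosen after seeing the data, Gzmc was called at -5.04 (adjusted p = 0.0206) and Gzmb was not at 1.17 (adjusted p = 0.0615).

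Computed from the scanner files instead of the deposited table, the tumor and tumor skin difference kept its direction for both genes but mostly lost its call. Gzmc was called with ComBat (-5.04, adjusted p = 0.0210 in limma) and in none of the other 5 ways, with changes of -6.32 to -4.35. Gzmb was called in none of the 6, with changes of 0.28 to 0.95. Over all 25 alternatives the adjusted p ran from 0.00692 to 1.00 for Gzmc and from 0.00787 to 1.00 for Gzmb, and neither gene changed direction in any of them.

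**Figure D2:**
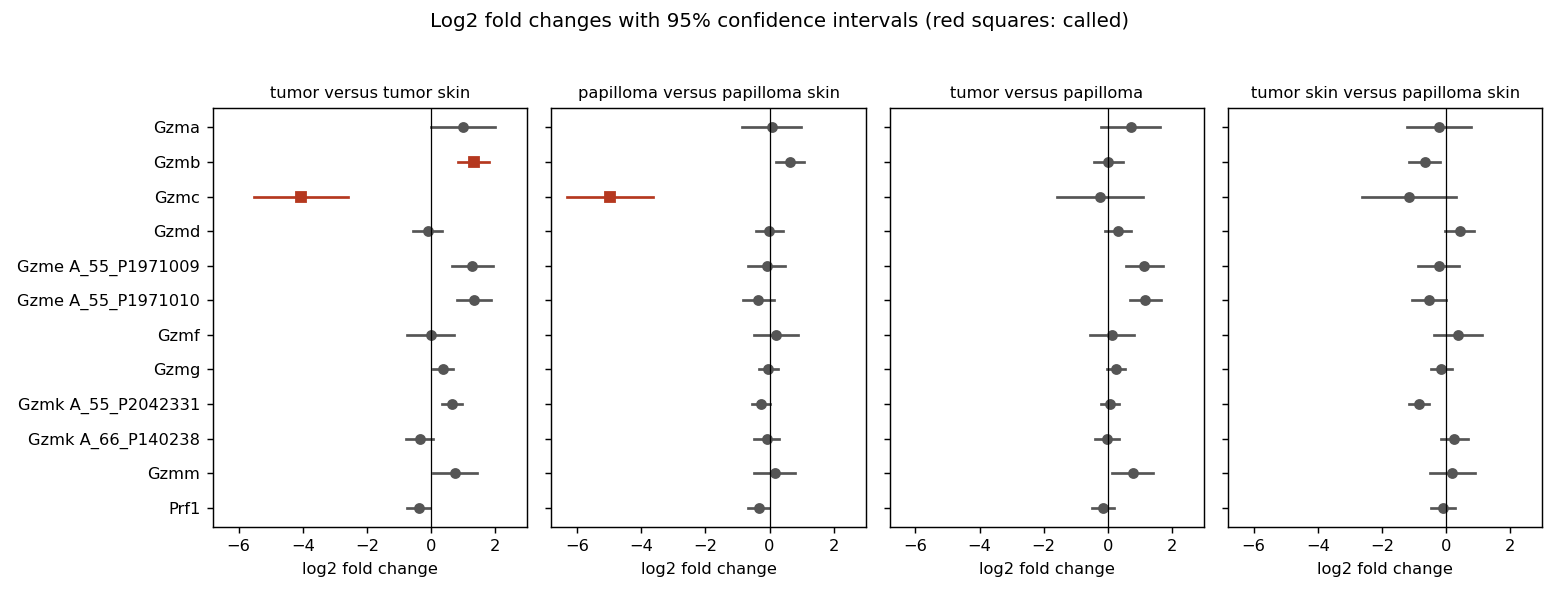
Log2 fold change of each member probe in 4 comparisons, with 95% confidence intervals from limma and called probes as red squares. Gzmc is the only called member in papilloma versus papilloma skin, at -4.98, and is joined by Gzmb in tumor versus tumor skin, and no member was called between lesions or between skins.

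The second question was how neutrophils of the benign lesion differ from those in the skin beside it. Gzmc was the only member called, and it fell by 4.98 on the log2 scale (SE 0.58, 95% CI -6.32 to -3.64, adjusted p = 0.00272 in limma), or 31.5-fold, which placed it at rank 14 of 55681 from the lowest change. No member probe was called higher, beside 2.18% of all probes, and 1 of 12 was called lower, beside 1%. Every papilloma array was below both papilloma skin arrays. Gzmb had a log2 fold change of 0.63 (adjusted p = 0.105 in limma), with all 3 papilloma arrays above both skin arrays. The change was 0.35 without papilloma skin 2 and 0.92 without papilloma skin 1, or without papilloma skin 1 and tumor 1 together. Papilloma skin 1, a compressed array, alone of these 2 skin arrays measured Gzmb well above background, so that its changes here are differences of the deposited values and not measured folds. Prf1 had -0.34 (adjusted p = 0.238 in limma). Gzma had a change of 0.07 (adjusted p = 0.948 in limma) and Gzmm one of 0.16 (adjusted p = 0.795 in limma), and their arrays overlapped between the groups. The unadjusted p was under 0.05 for 3 of the 12 probes, beside 20.7% of all probes, and the median change was -0.06, beside -0.01 for all probes. Within slides, papilloma minus papilloma skin for Gzmc was -5.06 on slide 1 and -5.72 on slide 2, or -3.81 on slide 2 if the columns papilloma 2 and 3 are exchanged, and with the labelled slide as a term the change was -5.38 (adjusted p = 0.00370 in limma). For Gzmb the within-slide differences were 0.29 and 0.79 (1.10 if exchanged), for Prf1 they were -0.17 and -0.37 (-0.52 if exchanged), and for Gzma they were 0.34 and -0.58, which turned to 0.40 if exchanged. Without the columns papilloma skin 1 and tumor 1 the Gzmc change was -4.64 (adjusted p = 0.0449 in limma), and without the 3 compressed arrays it was -4.64 (adjusted p = 0.0103).

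From the scanner files the papilloma difference of Gzmc was called with ComBat (-3.92, adjusted p = 0.00687 in limma) and in none of the other 5 ways, with changes of -4.82 to -3.20. Over all 25 alternatives its adjusted p ran from 0.00156 to 0.353 and every change was negative. Gzmb had changes of 0.77 to 2.03 from the scanner files and Gzma had 0.54 to 2.13. With ComBat both passed the adjusted p (0.0454 for Gzmb and 0.0480 for Gzma in limma), but their mean levels of 5.85 and 5.70 were under the minimum, so that neither was called, and neither passed in the other 5 ways. Gzmm ran from -0.94 to 0.27 and Prf1 from -0.50 to 0.59, so that the direction of both depended on the processing.

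With both lesions set against both kinds of skin, Gzmc was again the only member called, and fell by 4.51 on the log2 scale (SE 0.43, adjusted p = 0.000528 in limma), or 22.9-fold. No member was called higher, beside 2.29% of all probes, and 1 of 12 was called lower, beside 1.33%. Gzmb passed the adjusted p at 0.98 (SE 0.14, adjusted p = 0.00340 in limma) and was not called, as its change was under 1. Of the 4 skin arrays only the 2 compressed ones measured Gzmb well above background, so that its skin level is at best a ceiling, the change is a difference of deposited values, and its place on either side of the required fold is not settled. With that limit it was called when slide was added (1.04, adjusted p = 0.0113), without the columns papilloma skin 1 and tumor 1 (1.07, adjusted p = 0.0123), without the 3 compressed arrays (1.04, adjusted p = 0.0118), and without papilloma skin 1 (1.12), tumor skin 2 (1.01), papilloma 2 (1.01) or tumor 2 (1.03) alone. Prf1 had a change of -0.37 (adjusted p = 0.0590 in limma), and Gzmm one of 0.45 (adjusted p = 0.181 in limma), which ran from -0.08 to 0.93 from the scanner files and was 0.24 without tumor skin 2. Without tumor skin 1 Gzmm passed the adjusted p at 0.67 (adjusted p = 0.0475 in limma) but not the required fold. Without the columns papilloma skin 1 and tumor 1 the Gzmc change was -4.68, and without the 3 compressed arrays it was -4.84, called in both cases. Of the 6 ways from the scanner files Gzmc was called in ComBat alone, with an adjusted p from 0.000473 to 0.175 over all 24 alternatives. Gzmb had 0.00303 to 0.785 over its own. The unadjusted p was under 0.05 for 5 of 12 probes, beside 29.9% of all probes. This comparison uses the arrays of the preceding ones and adds no independent samples.

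**Figure D3:**
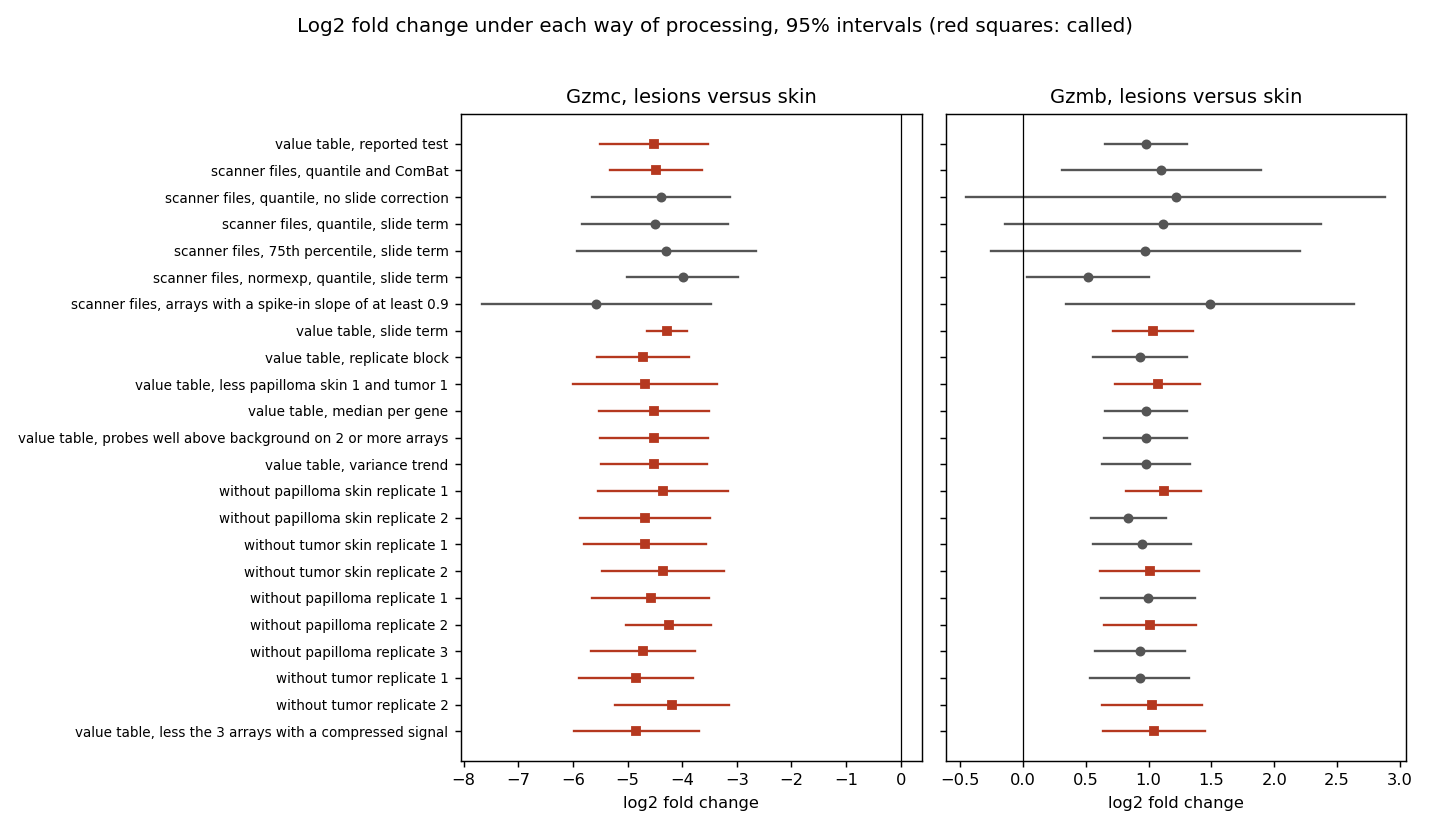
Log2 fold change of Gzmc and Gzmb in lesions versus skin under each way of processing, with 95% confidence intervals and calls as red squares. Gzmc lies between -5.57 and -3.99 in all of them and Gzmb between 0.52 and 1.49, while the interval of Gzmb includes 0 in 3 of the ways from the scanner files.

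The third question was whether neutrophils change further from the papilloma to the carcinoma. No member was called by limma in tumor versus papilloma, with 0.113% of all probes called higher and 0.334% lower, and 3 of 12 member probes had an unadjusted p under 0.05, beside 14.4% of all probes. These 3 were the 2 Gzme probes and Gzmm. Gzme had changes of 1.13 (adjusted p = 0.116 in limma) and 1.17 (adjusted p = 0.0599 in limma). As no papilloma array measured Gzme well above background, and of the informative arrays tumor 2 alone did so with 1 of 2 probes, these and the further Gzme values are differences of the deposited values and not measured folds. Gzmm had a change of 0.77 (adjusted p = 0.267 in limma) and Gzma one of 0.71 (adjusted p = 0.451 in limma), which turned to between -1.32 and -0.17 when computed from the scanner files and was 0.40 without papilloma 2, 0.13 without tumor 1 and 1.29 without tumor 2. Gzmb and Gzmc, at 0.02 and -0.24, did not pass the test between the lesions, with 95% intervals of -0.43 to 0.46 and -1.58 to 1.10, and Gzmb lay between -1.72 and -0.30 from the scanner files. The direction of both also turned when single lesion arrays were left out, with Gzmc at 0.18 without papilloma 3, 0.43 without tumor 2 and -0.90 without tumor 1. Without the columns papilloma skin 1 and tumor 1 Gzmb had -0.08 and Gzmc -0.90, and the probes of Gzme had 0.82 (adjusted p = 0.466 in limma) and 0.87 (adjusted p = 0.260 in limma), none of them called. Within slides, tumor minus papilloma for the first Gzme probe was 1.71 on slide 1 and 0.76 on slide 2, and for the second it was 1.38 and 0.84. For Gzmm it was 1.24 and 0.44, for Gzmb 0.18 and 0.05, for Gzmc 0.18 on both and for Gzma 1.04 and 0.74. With the columns papilloma 2 and 3 exchanged, the slide 2 values were 0.61 and 0.99 for the probes of Gzme and 0.57 for Gzmm, while those of Gzmc (-1.73), Gzmb (-0.27) and Gzma (-0.24) turned their direction. Prf1 (-0.09 to 0.05) and the dim Gzmd and Gzmf turned as well, as did both Gzmk probes at values near 0.

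Of the 12 probes 9 had a change above 0 between the lesions and 3 below, with a median of 0.20. Prf1 had -0.15 (adjusted p = 0.662 in limma). The Gzme changes were above 0 in every alternative, at 0.59 or more with the first probe and at 0.61 or more with the second. When the 2 Gzme probes were joined by their median the change was 1.15 (adjusted p = 0.0381 in limma), still under the minimum level. Tumor versus papilloma shares its arrays with the comparisons of each lesion with its own skin, where the first Gzme probe had 1.28 for the tumor and -0.09 for the papilloma, the latter between -2.56 and 0.38 from the scanner files.

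The fourth comparison, tumor skin versus papilloma skin, asked whether neutrophils in the surrounding skin differ by stage. No member was called by limma, beside 0.138% of all probes called higher and 0.122% lower, and 2 of 12 member probes had an unadjusted p under 0.05, beside 22.7% of all probes. Those were Gzmb, at -0.68 (adjusted p = 0.130) and between -0.27 and 0.78 from the scanner files, and the dim Gzmk probe, at -0.85 (adjusted p = 0.0494 in limma) and a mean level of 5.36. In each skin group 1 of 2 arrays measured this Gzmk probe well above background, a compressed one, and the other Gzmk probe had a change of 0.25 (adjusted p = 0.422 in limma). Gzma had -0.22 (adjusted p = 0.781 in limma), which turned to between 0.79 and 2.34 when computed from the scanner files. Prf1 had -0.10 (adjusted p = 0.736 in limma), which turned to between 0.17 and 0.82 there. Of the 12 probes 4 were above 0 and 8 below, with a median of -0.19. Gzmc had a change of -1.16 (SE 0.64, adjusted p = 0.307 in limma), with both tumor skin arrays below both papilloma skin arrays, and ran from -0.26 to 0.99 from the scanner files. Within slide 1 the difference was -1.82 for Gzmc and -1.02 for Gzmb. Without the columns papilloma skin 1 and tumor 1 it was -0.82 for Gzmc (adjusted p = 0.645 in limma) and -0.39 for Gzmb (adjusted p = 0.441 in limma).

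Whether the lesion effect itself differed between the stages was tested as the difference of the first pair of comparisons. No member was called by limma, beside 0.0126% of all probes called higher and 0.0144% lower, and 4 of 12 member probes had an unadjusted p under 0.05, beside 14.7% of all probes. Gzmc had a difference of 0.92 (SE 0.87, adjusted p = 0.665 in limma) and Gzmb one of 0.69 (SE 0.29, adjusted p = 0.319 in limma). From the scanner files both differences turned negative, to between -2.18 and -0.72 for Gzmc and between -1.57 and -0.49 for Gzmb. When single arrays were left out they ran from 0.26 to 1.59 for Gzmc and from 0.41 to 0.98 for Gzmb. Without the columns papilloma skin 1 and tumor 1 they were -0.08 for Gzmc (adjusted p = 0.989 in limma) and 0.31 for Gzmb (adjusted p = 0.753 in limma). That Gzmb was called in tumor versus tumor skin and not in papilloma versus papilloma skin is therefore not shown to be a difference between the stages. Gzme had differences of 1.37 (adjusted p = 0.196 in limma) and 1.69 (adjusted p = 0.126 in limma). From the scanner files they ran from 1.35 to 4.30 with the first probe and from 0.04 to 2.70 with the second. The dim Gzmk probe had one of 0.92 (adjusted p = 0.144 in limma). For Gzma the difference was 0.93 (adjusted p = 0.502 in limma) and turned to between -3.34 and -1.24 when computed from the scanner files. It ran from 0.36 to 1.51 when single arrays were left out. For Prf1 it was -0.05 (adjusted p = 0.941 in limma).

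**Figure D4:**
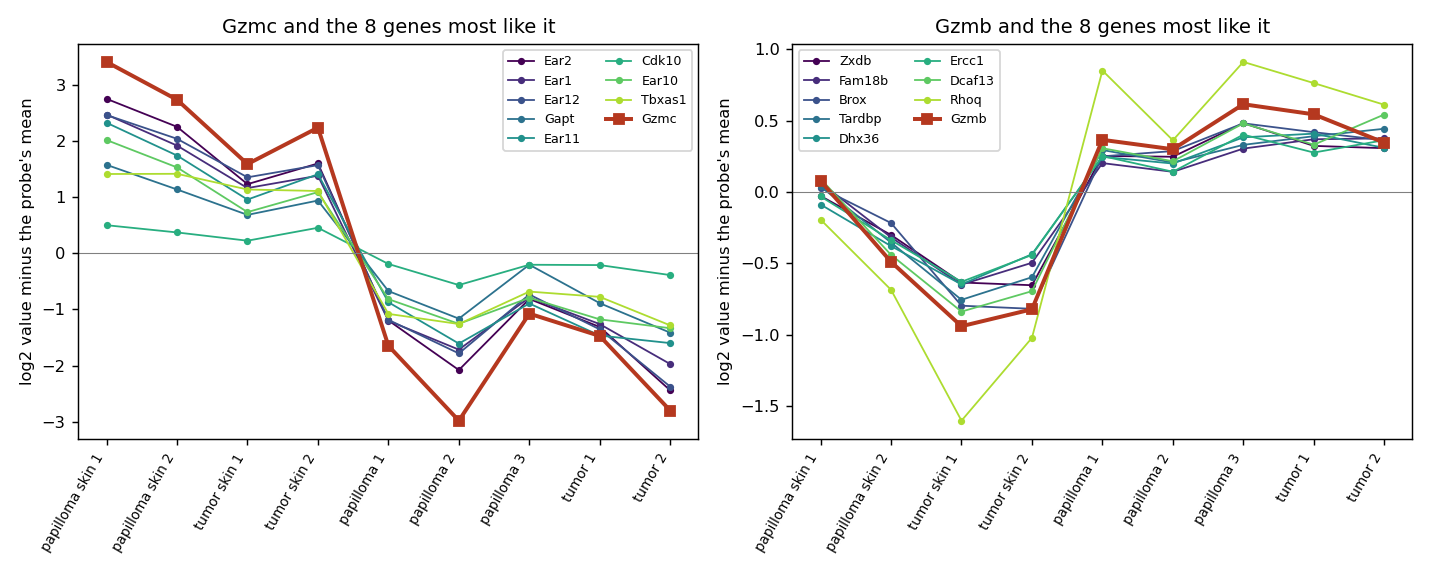
Log2 value minus the mean of the probe in each of the 9 arrays, for Gzmc, Gzmb and the 8 genes whose pattern is most like each. Gzmc and its 8 genes are high in the 4 skin arrays, and Gzmb and its 8 genes are high in the 5 lesion arrays.

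The genes most like Gzmc were sought among 10757 probes of 9087 gene names with a mean level of at least 6 and a range of at least 1. Across the 9 columns Pearson's r with Gzmc was 0.997 for Ear2, 0.995 for Ear1, 0.993 for Ear12, 0.990 for Gapt, 0.988 for Ear11, 0.986 for Cdk10, 0.985 for Ear10 and 0.985 for Tbxas1. The Ear genes encode ribonucleases known from eosinophil granules and from other myeloid cells. For Gzmb the closest were Zxdb (0.991), Fam18b (0.984), Brox (0.983), Tardbp (0.983), Dhx36 (0.982), Ercc1 (0.981), Dcaf13 (0.980) and Rhoq (0.978). The columns fall into a skin and a lesion cluster for these probes, so that r describes this split and is given without a test.

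Granule genes of other cells were looked at next, since the sorted cells are labelled as neutrophils. Neutrophil markers were well above background on all 6 informative arrays for 12 of 12 genes, with S100a9 the brightest, and their summed log2 level was 19.96 and 19.97 (papilloma skin), 20.18 and 20.13 (tumor skin), 19.66, 19.65 and 19.65 (papilloma) and 19.86 and 19.81 (tumor). The labelled cell type thus had its defining markers in every array, and in lesions versus skin 5 of the 12 were called lower (Camp, Ltf, Ly6g, Mmp8 and Ngp) and none by limma higher, where Ngp fell by 3.33, Ltf fell by 2.38 and Ly6g fell by 1.58. In that comparison 2.29% of all probes were called higher and 1.33% lower, and these shares stand beside the marker lists below as well. A smaller share of a cell type and less RNA per cell cannot be told apart in these pools.

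Killer lymphocytes, the cells best known for granzymes, were represented unevenly. T cell markers had 13 of 17 genes well above background on all 6 arrays, with Thy1 or Cd3d the brightest, and a summed log2 level of 13.57 and 13.17 (papilloma skin), 13.09 and 13.16 (tumor skin), 13.59, 13.19 and 13.68 (papilloma) and 12.67 and 12.75 (tumor). Both Cd8a probes, which read the co-receptor of killer T cells, passed on 1 of the 6 arrays. Of the 17 genes Cd3d alone was called lower in lesions versus skin and in tumor versus tumor skin. NK cell markers had 3 of 13 genes well above background on all 6, with Cd244 the brightest, and Klra8, Klre1, Klri2 and Klrk1 passed on none, while Ncr1, a defining NK receptor, passed on 1. Their summed log2 level was 12.81 and 13.04 (papilloma skin), 13.10 and 12.72 (tumor skin), 12.48, 12.75 and 12.58 (papilloma) and 12.49 and 12.33 (tumor). Cd244 made up most of this sum, and the median level of the NK list was 5.32 (papilloma 2) to 6.47 (papilloma skin 1). None of the NK markers was called by limma in lesions versus skin. Of their 18 probes 8 had an unadjusted p under 0.05, beside 29.9% of all probes. Il2rb was called lower in papilloma versus papilloma skin. Their part in the granzyme results was not tested.

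Eosinophil markers, which include Ear1 and Ear2 from the 8 genes most like Gzmc, split skin from lesions as a sum. Their summed log2 level was 13.95 and 13.57 (papilloma skin), 12.77 and 12.88 (tumor skin), 11.03, 11.21 and 11.39 (papilloma) and 11.84 and 11.63 (tumor), so that every skin array was above every lesion array. Among the lesions both tumor arrays were above the papilloma arrays, unlike Gzmc, and Siglec5 was the brightest gene there. In lesions versus skin 5 of 8 genes were called lower, namely Ear1, Ear2, Ccr3, Il5ra and Alox15, where Ear1 fell by 3.16 and Ear2 fell by 3.58 on the log2 scale. The same 5 were called lower in each lesion against its own skin, and Siglec5 was called higher in tumor versus tumor skin. Ear2 was the brightest gene in skin, whereas of the defining granule genes Epx passed on none of the 6 informative arrays and Prg2 on 1. Their part in the Gzmc result was not tested.

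Markers of other cells moved in part along the same split. Monocyte and macrophage markers (10 of 11 genes on the array, 9 above background on all 6 arrays) had a summed log2 level of 13.54 to 14.97 in skin and 12.74 to 13.26 in lesions, with Ccr2, Emr1 and Lyz2 called lower in lesions versus skin. B and plasma cell markers stood at 13.53 to 15.29 in skin and 10.48 to 10.95 in lesions, where Igj, the brightest in skin, fell by 6.92 and Cd79b was also called. Keratinocyte markers ran the other way, at 11.85 to 12.90 in skin and 13.33 to 15.54 in lesions, with Krt5, Krt14, Krt16, Krt6a and Krt6b called higher of 12. Mast cell markers stood at 17.05 to 17.44 in skin and 17.08 to 17.49 in lesions, a sum that is nearly Hdc alone (17.03 of 17.05 in papilloma skin 1). The median level of this list was 5.91 (tumor 1) to 7.61 (papilloma 2), and 6 of its 12 genes were above background on all 6 arrays. None of the 12 was called by limma in lesions versus skin, with 4 of 14 probes at an unadjusted p under 0.05, beside 29.9% of all probes. Basophil markers, at 8.78 to 9.29 in skin and 8.43 to 10.19 in lesions, had 1 of 8 called (Mcpt8, higher), and Gata2 and Il4 were lower in tumor versus papilloma. Plasmacytoid dendritic cell markers, at 10.72 to 12.60 in skin and 10.75 to 13.62 in lesions, had none of 6 called by limma in any comparison. In tumor versus papilloma 7 of their 10 probes had an unadjusted p under 0.05, beside 14.4% of all probes. The sort took Gr-1bright cells, from a stain that also held antibodies against markers of T, B and NK cells and is stated to have left high purity, and the part of these cells in the granzyme results was not tested.

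Genes that activate, store, release or restrain granzymes were read by 46 probes for 38 genes. In tumor versus tumor skin 4 genes were called higher (Crtam, Igf2r, Il18 and Prdm1) and 2 lower (Ctsh and Unc13d), and in papilloma versus papilloma skin 2 higher (Igf2r and Prdm1) and 5 lower (Ifng, Il2rb, Nkg7, Tbx21 and Unc13d). Of the 46 probes 4 were higher and 3 lower for the tumor, beside 2.71% and 1.51% of all probes. For the papilloma 2 were higher and 5 lower, beside 2.18% and 1%. None was called by limma in tumor versus papilloma or in the difference between stages. Each had 9 of 46 probes at an unadjusted p under 0.05, beside 14.4% and 14.7% of all probes. In tumor skin versus papilloma skin Il18 alone was called, lower. In lesions versus skin 3 were called higher (Igf2r, Prdm1 and Serpinb6b), beside 2.29% of all probes. Lower there were 6 (Ctsc, Ctsh, Ifng, Nkg7, Tbx21 and Unc13d), beside 1.33%. Each was called with 1 probe, which was 1 of 2 for Ctsc, Nkg7 and Unc13d. Serpinb6b and Ctsc were named after their values were seen. The median over the 46 probes was -0.03, beside -0.02 for all probes.

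Ctsh, a protease that removes the propeptide of granzymes, fell by 1.41 in tumor versus tumor skin. For release, Unc13d, which primes granules for fusion, fell by 1.15 in papilloma against papilloma skin with 1 of its 2 probes, and in tumor against tumor skin it fell by 1.10 with the first and fell by 1.01 with the second. Nkg7, a granule membrane protein of killer cells, fell by 2.14 in papilloma versus papilloma skin with 1 of its 2 probes, at a mean level of 7.44. Its other and brighter probe, at a mean level of 10.88, was not called, with group means of 11.11 in papilloma skin and 10.84 in papilloma. Igf2r, the mannose 6-phosphate receptor that sorts granzymes, rose by 1.58 in tumor versus tumor skin. Serpinb9b, a relative of the granzyme B inhibitor, and Il12b passed on none of the 6 informative arrays. Tbx21, a transcription factor of killer cells, fell by 1.35 and Ifng fell by 1.74 in papilloma versus papilloma skin, while Prdm1 rose by 1.05. Papilloma skin 2 stood at 8.01 for Tbx21 and 8.56 for Prdm1, beside papilloma means of 7.06 and 9.47. Without papilloma skin 1 the changes of Tbx21 and Prdm1 were thus under 1, the minimum for a call.

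The neighbours of the granzyme loci and the neutrophil serine proteases, listed together with the granule peroxidase Mpo (15 probes for 14 genes), did not move as a block with Gzmc. In tumor versus tumor skin Mcpt2 was called higher and Cfd lower, in papilloma versus papilloma skin Mcpt2 and Mcpt8 were called higher and Cfd, Ctsg, Mpo and Prtn3 lower, and in lesions versus skin Mcpt2 and Mcpt8 were called higher and Cfd and Ctsg lower. None was called by limma in the other 3 comparisons, with 3 probes at an unadjusted p under 0.05 in tumor versus papilloma, 5 in tumor skin versus papilloma skin and 6 in the difference between stages. The papilloma mean of Prtn3 was 6.175 and papilloma skin 2 stood at 7.165, so that without papilloma skin 1 its change was under 1. Ctsg, on the far side of the cluster from Gzmc, fell by 2.23 in papilloma versus papilloma skin. Mcpt8, the gene beside it, and Mcpt2 were well above background on 4 of the 6 informative arrays, so that no size is given for their change. Gzmn, which lies between Gzmg and Gzmf, passed on none of the 6 informative arrays. Within the chromosome 14 cluster Gzmc and Gzmb, which are adjacent, were thus called in opposite directions in tumor versus tumor skin.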

How the data were processed

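Expression was measured in sorted neutrophils with 9 Agilent arrays in 4 groups, taken from the labels. The authors deposited scanner output (Feature Extraction 10.7.3.1, probe design on mm9) with fluorescence intensity per spot, background-subtracted by the software and not scaled between arrays, and a matrix of log2 values, a single value per probe and array. Quantile normalization and a ComBat correction for slide are described by the authors, but which of these the deposited log2 matrix holds, and how it was centred, is not stated. Column medians were 6.08 to 6.12 and 0 of its values were missing.

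Each of 55681 probes was fitted in limma 3.58.1 (R 4.3.3, data.table version 1.17.8) with 1 mean per group, 5 residual degrees of freedom (3 with slide) and no further correction, and p-values were adjusted by Benjamini-Hochberg over all probes. To be called, a probe needed an adjusted p no greater than 0.05, a log2 change of 1 or more in either direction, and a mean level of 6 or more. There were 6 comparisons. Tables and sequences were handled in Python 3.11.15 with numpy 2.4.6 and pandas 2.3.3, and plots drawn with matplotlib 3.10.9. The fit was tested on simulated data.

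Members were all non-control probes with a member's gene name. Named from 2 further lists were genes called in any pairwise comparison, at most 12 per list by the largest change, and genes needed to say what stayed below background. Serpinb6b and Ctsc fall outside this rule and were named after their values were seen. There were 10 marker lists, for neutrophils, T cells, NK cells, mast cells, basophils, B and plasma cells, plasmacytoid dendritic cells, monocytes and macrophages, eosinophils and keratinocytes. Lists share Gata2, Fcer1a, Ms4a2, Il2rb, Eomes, Mcpt8, Mcpt4 and Cma1 with one another. A list's summed level is the log2 of the sum of its genes' unlogged values, so that the brightest gene weighs most in it. Likeness is Pearson's r over the 9 columns, for the 8 closest gene names. Members and lists were chosen with earlier results of these data known, and the CRE motif was added after the promoters were read. Promoters are those of RefSeq.

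Of 16 alternatives 1 left out each array in turn. The others took the values from the scanner files with quantile normalization and ComBat (an implementation written for this purpose, which does not count the degrees of freedom of the slides), with no slide correction, with a slide term, with scaling to the 75th percentile and a slide term, with normexp background correction (offset 50), quantile normalization and a slide term, or with the 6 arrays of spike-in slope at least 0.9; or kept the value table with a slide term, a replicate block, less papilloma skin 1 and tumor 1, the median per gene, no level minimum, a level of at least 7, only probes well above background on 2 or more arrays, a variance trend, or only the groups compared. A single alternative was added after seeing the data.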

Additional observations from a re-analysis of the deposited data

How the results depend on the processing

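In tumor versus tumor skin 2 member probes were called, Gzmc and Gzmb. The count was 1 with ComBat on the scanner files and 0 in each of the other 5 ways from the scanner files (no slide correction, slide term, 75th percentile, normexp, and the 6 arrays whose spike-in slope reached 0.9). On the deposited values it was 1 with a slide term, 1 with a level of at least 7, 1 less the 3 compressed arrays (chosen after seeing the data) and 4 with no level minimum, where the 2 Gzme probes joined. Leaving out single arrays gave 0 to 2. Apart from the 2 settings that change only the level minimum, the 4 called results had 91 values under alternatives, of which 64 passed the thresholds, 27 did not and 0 changed sign. With a level of at least 7 the call of Gzmb was lost as well.

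With the replicate number as a term, called replicate block here, the count in tumor versus tumor skin was 1, with Gzmc at -4.05 (adjusted p = 0.0304 in limma). Of 12 pairs of arrays with the same number 3 had a correlation of their deviations over 0.1, with a range of -0.957 to 0.376, so the numbers do not pair the arrays.

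In papilloma versus papilloma skin 1 probe was called, Gzmc. The count was 0 in the 5 ways from the scanner files other than ComBat, and 1 whichever single array was left out. In lesions versus skin 1 probe was called, Gzmc, and 0 in the same 5 ways. It was 2, with Gzmb added, with a slide term, less papilloma skin 1 and tumor 1, and less the 3 compressed arrays, and 1 to 2 when single arrays were left out. No member was called by limma in the other 3 comparisons under any alternative. Of 1541 values of results that were not called 208 had the other sign, 142 of these from the scanner files. With no slide correction, a slide term, the 75th percentile or normexp, 0 of all probes from the scanner files were called in papilloma versus papilloma skin. In lesions versus skin the 75th percentile called 19 probes of the array higher and 6 lower, and the others called 0. Where a group keeps a lone array, that array is assumed to vary like the other groups. In all these cases the cause was not tested. Probes near background limit what can be said of Gzmd, Gzmf, Gzmg and Gzme.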
